A study of Drosophila melanogaster with 2 samples.

Results

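The intronic peaks of pan lying 1 to 5 kb from a transcription start site (TSS) were 1184 of the 6359 conservative peaks on the main chromosome arms. A peak was a member when its summit fell inside a gene, outside every annotated exon, and 1001 to 5000 bp from the nearest TSS of any gene, pseudogenes and transposable elements aside. Chromatin immunoprecipitation and sequencing had been done with an antibody against GFP on whole Drosophila melanogaster embryos, 0 to 24 h old, from flies that express pan fused to eGFP. There was 1 group with 2 biological replicates and no other condition. Both replicates carried the same tagged insertion, whose tag the antibody pulls down, and the labels do not say whether untagged pan was also present. The embryos were whole and of mixed stages, so no tissue or time can be assigned to a peak. Material was sonicated to fragments of 200 to 800 bp. A control named in the labels was not used here, so the specificity of the peaks was not tested against it.

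The pangolin (pan) protein is the fly TCF, through which Wingless, a Wnt ligand, acts on genes. Without signal it represses targets together with co-repressors such as Groucho. When Wingless signals, Armadillo (β-catenin) reaches the nucleus, binds TCF and turns targets on. TCF reads a short core through its HMG domain and, in the fly, a GC-rich helper site through another domain. Many fly genes carry enhancers inside their introns, often in the long introns near their 5′ ends, and several Wingless response elements have been mapped to introns.

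Sequences from the summits are shown as the RefSeq genome of Release 6 (dm6) gives them, forward strand, 5′ to 3′, for the summit and 50 bp on either side of it. Capitals mark matches to the TCF core, which was searched on both strands as CTTTG followed by 2 letters that are each A or T. The summits of 4 strong members are given first. None of them holds the core, which 10.7% of all members had at the summit:
CG11050, chr2L:6612664-6612764: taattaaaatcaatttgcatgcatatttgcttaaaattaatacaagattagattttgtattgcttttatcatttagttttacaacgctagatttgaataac
CG32772, chrX:4910308-4910408: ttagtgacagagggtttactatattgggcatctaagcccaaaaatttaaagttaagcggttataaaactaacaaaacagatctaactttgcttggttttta
Tlk, chrX:3742172-3742272: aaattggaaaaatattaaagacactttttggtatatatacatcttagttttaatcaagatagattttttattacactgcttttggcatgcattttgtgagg
Trl, chr3L:14759470-14759570: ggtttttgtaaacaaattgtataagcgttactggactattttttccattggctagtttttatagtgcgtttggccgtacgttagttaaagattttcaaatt
CG11050, CG32772 and Tlk, the gene of the Tousled-like kinase, hosted the 3 members of highest signal. Trl encodes the GAGA factor, a chromatin protein. All 4 windows are rich in A and T, with GC contents of 21.8%, 31.7%, 25.7% and 31.7%.

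The members in genes of the Wnt pathway that did hold a core at the summit were these 3:
Notum, chr3L:16029022-16029122: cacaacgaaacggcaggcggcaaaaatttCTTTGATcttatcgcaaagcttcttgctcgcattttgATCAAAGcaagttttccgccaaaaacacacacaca
fz, chr3L:14366222-14366322: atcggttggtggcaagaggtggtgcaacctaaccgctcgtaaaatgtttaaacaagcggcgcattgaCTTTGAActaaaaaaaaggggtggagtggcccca
fz2, chr3L:19225943-19226043: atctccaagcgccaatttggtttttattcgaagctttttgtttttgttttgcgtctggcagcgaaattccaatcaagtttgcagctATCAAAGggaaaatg
Notum encodes a secreted Wnt deacylase that feeds back on the pathway, and its summit window held 2 cores in opposite orientations. The receptor genes fz and fz2 had 1 core each. Further members with a core are shown for the strength of their peak or for a helper site, GCCGCC followed by A or G, in the same window:
CHES-1-like, chrX:7700352-7700452: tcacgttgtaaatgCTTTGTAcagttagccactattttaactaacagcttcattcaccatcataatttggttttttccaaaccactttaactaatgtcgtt
sn, chrX:7972499-7972599: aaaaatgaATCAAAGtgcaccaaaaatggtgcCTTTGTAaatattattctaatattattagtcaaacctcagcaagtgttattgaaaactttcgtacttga
Fhos, chr3L:8763250-8763350: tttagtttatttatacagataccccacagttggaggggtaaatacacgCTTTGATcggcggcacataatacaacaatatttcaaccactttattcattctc
tup, chr2L:18871218-18871318: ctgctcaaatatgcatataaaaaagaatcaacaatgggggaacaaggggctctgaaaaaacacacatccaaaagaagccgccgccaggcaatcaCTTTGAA
CHES-1-like encodes a forkhead protein and had the strongest core-bearing summit of these (pooled signal 466). Stronger members with a core, whose sequences are not shown, lay in mam (572), Tlk (492.1) and Amph (470.2). The summit in sn, the fascin gene, held 2 cores. The window in Fhos, a formin gene, held 1 core and 1 helper site. The window in tup, a LIM-homeodomain gene, held 1 core and 2 helper sites. In all, 127 members had a core within 50 bp of the summit, 12 of them 2 cores, and 5 members had both a core and a helper site there.

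Each peak carries a signal from the authors, on a scale that the labels and headers leave unnamed. It was used to describe and rank peaks, and signals for a single replicate come from that replicate's own ranked list. Peaks had been called by the authors on each replicate and on both pooled, and kept by the irreproducible discovery rate (IDR), which scores whether peaks recur at the same rank. Of 122939 pooled ranked peaks on the main arms 5.17% were in the conservative list. Depth in reads is unknown, and intervals below cover counting error only. Peaks of 1 genome are not independent replicates, so each test describes the lists and not the spread between embryos.

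The strongest member lay in an intron of CG11050 at chr2L:6612535-6612894, 1027 bp from the TSS of the same gene, at 1293.1 in replicate 1 and 1195.2 in replicate 2. It ranked 3 among all conservative peaks by pooled signal. CG32772 followed at chrX:4910222-4910513, with 811.8 in replicate 1 and 765.4 in replicate 2. Tlk came next at chrX:3742074-3742372, with 702.5 and 771.1 in replicates 1 and 2. The replicates placed these 3 peaks at nearly equal signal. CG3726 at chrX:5918769-5919055 had 669.7 in replicate 1 and 553.5 in replicate 2. NFAT, which encodes a calcium-regulated transcription factor, had a member at chrX:13640371-13640657 with 546.9 in replicate 1 and 627.7 in replicate 2. The Trl member at chr3L:14759337-14759681 had 693.9 in replicate 1 and 443.9 in replicate 2, the widest ratio among the 6 strongest.

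The next members by pooled signal were in norpA (1092.9), the phospholipase C gene of phototransduction, CG9837 (1054.2), CG12769 (1038.3) and the non-coding gene lncRNA:CR44810 (933.2). Then came the kinase genes Csk (841.3) and Raf (838.5), for (818.8), which encodes a cGMP-dependent protein kinase, and Mekk1 (668.4), a MAP kinase kinase kinase gene, and CG32264 (643.8). All 15 of these were in both replicates' passing lists, which their choice by pooled signal favours. A first intron held 11 of the 15, none had a TCF core within 50 bp of the summit, and their summit GC content ran from 21.8% to 39.6%. Of all members 73% were in a first intron and 10.7% had a core. In the strongest of 5 equal groups by pooled signal 10.6% had a core.

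The pooled signal of the 1184 members had a median of 120.6, with quartiles of 86.4 and 186.8 and extremes of 2.04 and 2509.3. Of the 100 strongest conservative peaks 10 were members, and of the 500 strongest 64, while members made up 18.6% of the whole list. Peaks within 250 bp of a TSS, 34.1% of the list, held 64 and 256 of these places. Of the members 50.3% lay above the median signal of the conservative list, against 49.9% of the 5175 other peaks. This difference did not pass Fisher's exact test (two-sided, odds ratio 1.02, 95% interval 0.896 to 1.15, adjusted p = 0.797 over the 7 single comparisons made). The odds ratio was 0.859 among the peaks of replicate 1 alone. Intronic peaks over 5 kb from a TSS had a median of 108.9, and peaks within 250 bp of one had 128.4.

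A peak of each replicate's own passing list overlapped 54.8% of the members (649) by 50% of the shorter peak or more, against 52.6% of the other peaks. The share over all conservative peaks was 53%. The odds ratio of 1.09 (0.964 to 1.24) did not pass Fisher's exact test (adjusted p = 0.193). Among the peaks of replicate 2 alone, class members were found in the list of replicate 1 more often than other peaks, and the odds ratio there was 1.24 (Fisher's exact adjusted p = 0.00767). Of the members 772 were in the list of replicate 1, 818 in that of replicate 2, 292 in only 1 of them and 243 in neither. The replicates' own ranked lists, which reach further down, both held 1123 of the members. Over these the 2 signals had a Spearman correlation of 0.771, given as a description across peaks, and 0.756 over the 4877 other peaks matched in the same way. The ratio of replicate 2 to replicate 1 had a median of 1.01, with 5th and 95th percentiles of 0.601 and 1.73. It exceeded a factor of 2 in either direction for 3.56% of the members and 5.17% of the other peaks. The conservative peaks were called on these same replicates pooled and kept by IDR, which by itself favours agreement between the replicates.

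**Figure D1:**
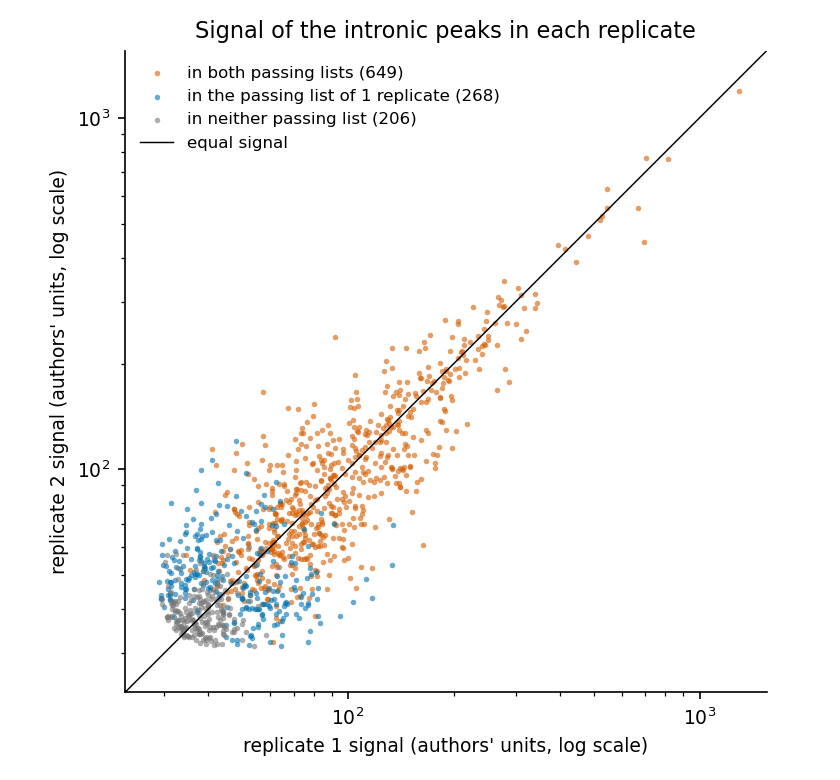
Signal of each member in replicate 1 (x axis) and replicate 2 (y axis), both in the authors' units on log axes, for the 1123 members matched in both ranked lists; colour shows whether a member was in both, 1 or neither of the replicates' passing lists. Points follow the line of equal signal, closely so at high signal, and the members in neither list sit at the low end. Selection by IDR on the same replicates favours this.

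A small set of members was weak. A pooled signal under 50 was carried by 52 members (4.39%) and by 4.68% of the other peaks. Of these 52 members 47 overlapped another conservative peak, and 39 were in neither replicate's list. A replicate's own signal above the pooled one was found in 33 members, 30 of which overlapped another conservative peak. In Gdi, for example, 2 overlapping members had pooled signals of 160.2 and 2.87, and both matched the same replicate peaks, at 82.8 in replicate 1 and 65.8 in replicate 2. Gdi was named after its values were seen. This sharing was not general, since 17 of the 52 weak members matched a peak in neither replicate's ranked list. With all peaks under 50 left out, a check added after seeing the data, no call in the 7 single comparisons changed, and 4 and 5 motifs were called as before.

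Members made up 18.6% of the conservative list (95% interval 17.7 to 19.6%, 1184 of 6359). Peaks of the same position class made up 16.1% (18282) of the 113608 ranked peaks, called on pooled data, that fell short. A ranked peak fell short when its IDR missed the threshold and it overlapped no peak of any passing list, pooled or single-replicate. Other ranked peaks that overlapped a listed peak were counted on neither side. Their effect on the ratios below was not tested. By Fisher's exact test the ratio of odds came to 1.19 (1.12 to 1.27, adjusted p = 4.00e-07). As descriptions, the same ratio was 0.712 (0.662 to 0.767) for intronic peaks over 5 kb from a TSS and 0.594 (0.549 to 0.641) for intergenic peaks. It was 5.78 (5.46 to 6.11) for peaks within 250 bp of a TSS and 1.07 (1 to 1.14) for those beyond, up to 1000 bp. For exonic peaks over 1 kb from a TSS it was 0.0801 (0.0671 to 0.0955). Such exonic peaks made up 2% of the conservative list but 20.3% of the peaks that fell short. Their part in the ratio of 1.19 for the members was not tested. A further 33 ranked peaks of the members' position class had an IDR as good as that of conservative peaks but were in no list, and were counted on neither side. The 1184 members lay in 19.1 Mb of intron, at 61.9 per Mb (58.5 to 65.6). That is below the 99.4 per Mb (90.2 to 109.2) of introns 500 to 1000 bp from a TSS. It is above the 32.4 per Mb (30.3 to 34.7) of introns over 5 kb from a TSS. Over 250 and up to 1000 bp from a TSS, introns or not, there were 58.7 per Mb (55.5 to 62), on unlike bases.

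Within the class the density was higher near the TSS. Between 1 and 2 kb there were 77.2 members per Mb of intron (70.7 to 84.1, 524 members). Between 2 and 3 kb there were 54.4 (48.2 to 61.2), between 3 and 4 kb 54.1 (47.1 to 61.8), and between 4 and 5 kb 51.5 (44 to 59.9). The last 3 values do not differ beyond their intervals, while the first lies above them. In the lists of the single replicates the nearest kilobase had 55.8 per Mb in replicate 1 and 64.8 in replicate 2, and the farthest had 36.1 and 40.7. Peaks that fell short of the threshold did not share this order, with 936.2 per Mb in the nearest kilobase and 958.5 to 978.6 in the other 3. From 5 to 10 kb the density was 48.6 (44.4 to 53.1), next to that of the members farthest out.

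**Figure D2:**
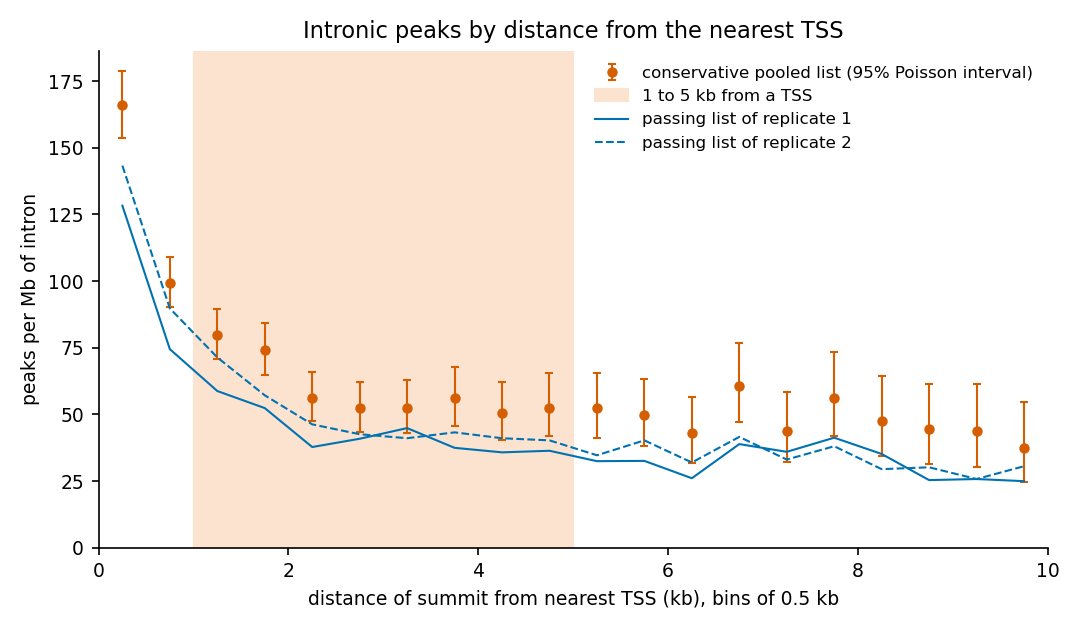
Conservative peaks per Mb of intron (y axis) in bins of 0.5 kb by distance from the nearest TSS (x axis, kb), with exact 95% Poisson intervals, and the passing list of each replicate as lines; the shaded range is the class described here. Density is 79.8 per Mb in the first shaded bin and lies between 50.5 and 56.3 from 2 kb to 5 kb.

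The distance limits cut a continuous range. Just beyond 1 kb from the TSS lay members in C3G, kis and Bx, at 1001, 1002 and 1002 bp, with pooled signals of 372.1, 150.4 and 3.08. Just short of it lay peaks outside the class in Raf, Moe and chinmo, at 997, 996 and 992 bp, with 99.1, 163.1 and 88. At the far limit the last members were in MSAmiP and the overlapping lncRNA:iab8 (4997 bp, 79.9), cno (4973 bp, 155.5) and Pdk (4971 bp, 158.8). The first peaks beyond it were in tara (5001 bp, 239.9), cv-c (5002 bp, 136.3) and CG46339 (5012 bp, 139.4).

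The members lay in first introns more often than the peaks of their class that fell short. A first intron of at least 1 host transcript held 73% of them (864), against 58% of the 18282 peaks of the same position class that fell short of the threshold. The odds ratio was 1.95 (1.71 to 2.23, Fisher's exact test, adjusted p = 1.18e-24), and 1.42 (Fisher's exact adjusted p = 3.85e-08) where every host transcript had to place the summit in its first intron. First introns make up 55.1% of the class's bases. Per Mb there were 82 members (76.6 to 87.6) in first introns and 37.3 (33.3 to 41.6) in the remaining ones. The shortest intron around a summit had a median length of 8757 bp and the longest host gene a median of 26900 bp. The class rule, which asks for bases outside exons and far from any TSS, itself favours long introns and genes. No such lengths were taken for the peaks that fell short. The shortest of these introns was 68 bp, and that of the strongest member, in CG11050, was 140 bp. Fewer summits lay close to an exon, with 6.17% of the members within 200 bp of one, against 15.1% of the peaks that fell short and 18.3% of the class's bases. Whether distance from exons had a part in the first-intron difference was not tested. The nearest TSS belonged to a host gene for 908 members and to another gene for 276, and the summit was downstream of it for 64.7%. These shares were not taken for the class's bases or for the peaks that fell short.

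By chromosome arm the density ran from 51.6 members per Mb (44.3 to 59.8) on 2L to 70.3 (62.2 to 79.2) on 3L and 70.2 (62 to 79.1) on X, with 62.6 on 2R and 57.9 on 3R. The share in both replicates' lists was 61.9% on X and 50.6 to 55.7% on the 4 large autosomal arms. Chromosome 4, with 0.179 Mb in the class, held 0 members and only 8 peaks that fell short, so a density of up to 20.6 per Mb is allowed there by the exact Poisson limit.

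A member lay in 736 of the 6863 protein-coding genes with bases in the class (10.7%). Of these 478 had 1 member, 144 had 2, 58 had 3 and 14 had more than 5. These 14 held 102 members, of which 53.9% were in both replicates' lists. The gene with the most was shn, which encodes a zinc-finger cofactor of BMP signalling, with 10 members of pooled signal 38.2 to 630.1, of which 7 were in both lists. CG1677, CG32264 and Smr had 9 each. All 9 of CG1677 also lay in lncRNA:CR44357, and each was nearest to a TSS of another gene, such as unc-119. Smr encodes a nuclear co-repressor, and only its 3 strongest members, at 320.9, 260.4 and 155.9, were in both lists.

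CHES-1-like had 8 members, and every one of them was in both replicates' lists. The strongest, at chrX:7698300-7698538, reached 340.3 in replicate 1 and 288.3 in replicate 2. The next, at chrX:7700307-7700522, whose summit is printed above with its core, had 234.8 in replicate 1 and 239.8 in replicate 2. The weakest, at chrX:7706327-7706666, had 48.1 in replicate 1 and 63.8 in replicate 2 and also held a core. The 8 members of Tlk ran from 97.1 to 1464 in pooled signal, with 6 in both lists. After its strongest member came one at chrX:3774353-3774557 with 265.1 in replicate 1 and 226.2 in replicate 2, which held a core.

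CG5151 had 7 members, of which 2 were in both lists. RapGAP1 (a GTPase-activating protein gene), Rbfox1 (an RNA-binding splicing regulator), ftz-f1 (a nuclear receptor), kirre (an immunoglobulin-family adhesion protein of muscle founder cells), pnt (an ETS factor of the EGFR pathway), siz and tou had 6 each. Their strongest members ranged from 149.6 in pnt to 457.2 in kirre. Of the 6 in ftz-f1 1 was in both lists, and of the 6 in pnt and in tou 4 each.

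**Figure D3:**
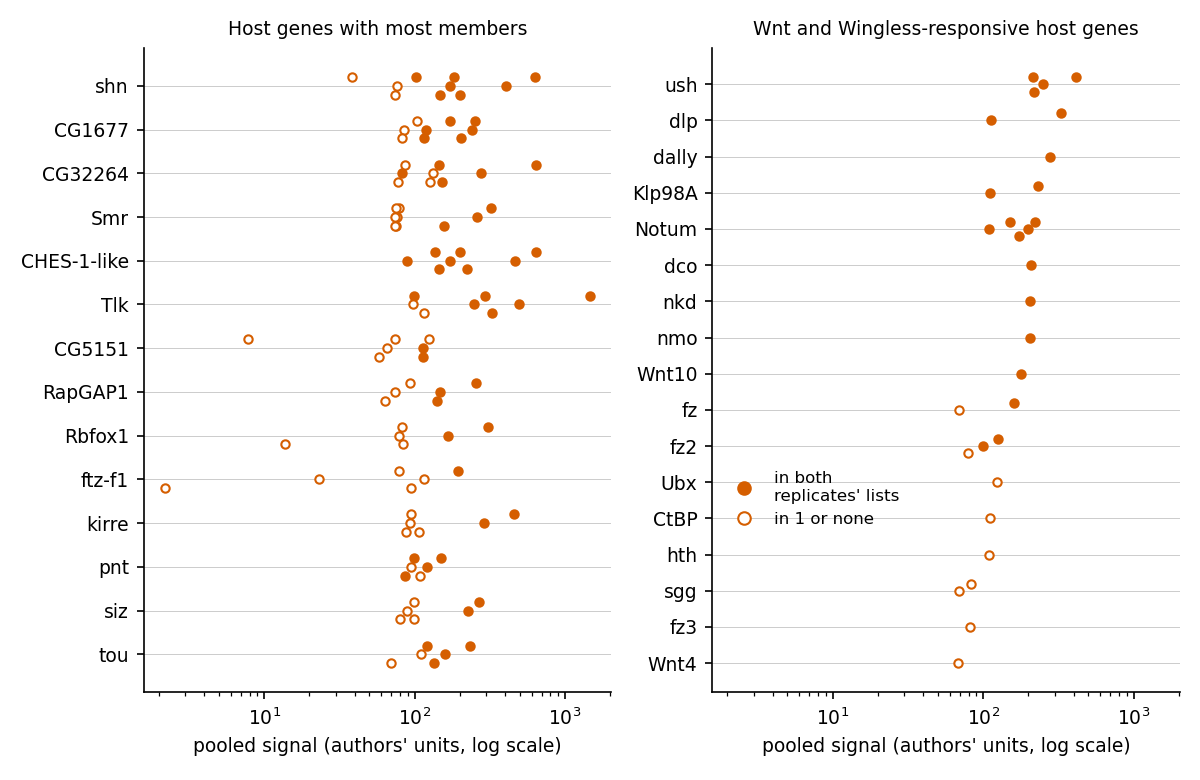
Pooled signal (x axis, authors' units, log scale) of each member in the 14 host genes with more than 5 members (left) and in the 17 host genes of the Wnt pathway and Wingless-responsive lists (right), 1 row per gene. Filled points were in both replicates' passing lists and open points in 1 or none; points of a gene are offset vertically only for legibility. All 8 members of CHES-1-like and all 5 of Notum are filled.

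Genes of the Wnt pathway hosted 24 members in 14 of the 42 listed genes that have bases in the class. Genes reported to respond to Wingless hosted 13 in 6 of 29, and 3 genes, nkd, Notum and fz3, are on both lists. Together 17 genes held 30 members, of which 21 (70%) were in both replicates' lists and 3 had a TCF core. Of all 1184 members 54.8% were in both lists and 10.7% had a core. Per Mb of class bases the density was 86.1 (55.1 to 128.1) in Wnt pathway genes and 75.5 (40.2 to 129) in Wingless-responsive genes, against 62.1 (58.5 to 65.7) over all protein-coding genes, so both intervals take in the overall value. The median pooled signal was 137.6 in Wnt pathway genes and 199.1 in Wingless-responsive genes, against 120.9 over all protein-coding hosts. Of the 13 members in Wingless-responsive genes Notum gave 5 and ush 4.

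Among ligands and their handling, Wnt10 hosted a member at chr2L:7376218-7376557 with 98.6 in replicate 1 and 78.3 in replicate 2, nearest to a TSS of ninaC. The Wnt4 member had a pooled signal of 67.7 and was in neither list. The glypicans Dally and Dlp bind Wingless at the cell surface. The stronger dlp member, at chr3L:14666057-14666246, had 147.2 in replicate 1 and 177.8 in replicate 2, and the dally member, at chr3L:8841884-8842036, had 142.1 and 126.8 in replicates 1 and 2. Both lay nearest to a TSS of a non-coding gene.

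Among receptors, fz had a member at chr3L:14366102-14366441 with 64.8 in replicate 1 and 103.1 in replicate 2, and a weaker one in neither list. Of the 3 members of fz2 the strongest, at chr3L:19225823-19226162, had 62.5 in replicate 1 and 74.7 in replicate 2, and 2 were in both lists. The fz3 receptor gene, a Wingless target, had 1 at 81.6 in the list of replicate 2 only. The cores of fz and fz2 are those printed above.

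Notum had 5 members within its first intron of 5351 bp, and all 5 were in both lists. The strongest, at chr3L:16029008-16029137, had 80.1 in replicate 1 and 153.7 in replicate 2 and carried the 2 cores. The others had pooled signals of 199.1, 172.2, 149.8 and 109, and no core. The feedback antagonist gene nkd had 1 member, at chr3L:19042498-19042837 and 2781 bp from its TSS, with 105.2 in replicate 1 and 112.8 in replicate 2. Its summit window had a GC content of 19.8%, against 46.5% in its flank.

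Among kinases and other intracellular proteins, the casein kinase gene dco had a member with 91.3 in replicate 1 and 104.4 in replicate 2, and nmo, the Nemo kinase gene, one with 104.5 and 98 in replicates 1 and 2. The glycogen synthase kinase gene sgg had 2 weak members, at 82.9 and 69.7, with 0 in both lists. The Klp98A kinesin gene had 2 members, at 231.7 and 111.1. The co-repressor gene CtBP had 1 member, at 111.1, in the list of replicate 1 only. No member lay in arm, arr, gro or Axn, which have 4.19, 7.64, 2.72 and 4.57 kb in the class.

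Of the Wingless-responsive genes outside the pathway, ush, which encodes a GATA cofactor, had 4 members in both lists each. The strongest, at chr2L:522006-522217, had 205.7 in replicate 1 and 207.9 in replicate 2, and the next, at chr2L:520746-520909, had 128.3 and 127.1 in replicates 1 and 2. The homeotic gene Ubx had 1 member at 122.8 and the homeobox gene hth 1 at 109.1, each in the list of replicate 1 only.

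Other lists were counted in the same way and were not tested. The BMP and activin pathway had 16 members at 137.8 per Mb (78.7 to 223.7), led by shn (630.1), the receptor gene wit (430.4) and the extracellular antagonist gene sog (322.3). Polycomb, trithorax and chromatin genes had 17 at 124.9 per Mb (72.8 to 200), led by Trl (1130.5), ph-p (322.2) and sbb (203.1). Both lower bounds lie above the 65.7 per Mb that is the upper bound over all protein-coding genes, but these were 2 of 24 lists and shn alone gave 10 of the 16 BMP members.

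The EGFR, FGFR and Ras pathway had 20 members at 107.1 per Mb (65.4 to 165.3), led by Raf (838.5), the secreted EGFR inhibitor gene aos (540.8) and the FGF gene ths (434.6). The Hippo pathway had 8 at 121.6 per Mb (52.5 to 239.6), led by crb (300.6), ex (259.1) and kibra (211.7). The Hedgehog pathway had 8, led after dlp by rdx (146.7) and boi (135.6). Of 19 in ecdysone and nuclear receptor genes the strongest were in tai (251.6), EcR (248) and Hr3 (221). The Notch pathway had 4 members, in mam (572 and 438.4), neur (423.7) and kuz (84.7).

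Regulators of mesoderm, muscle and heart had 9 members, led by zfh1 (483), Mef2 (256.9) and nau (140.8). Trachea and epidermis regulators had 9, led by aos (540.8), rib (240.8) and grh (206.4). Neural regulators had 7, led by fru (227.2), grh and insc (202.6), at 39.6 per Mb (15.9 to 81.5). Endoderm and gut regulators had 5, in bowl (251.7), dve (114.3) and cad (70.4). The list of Hox genes, to which exd and hth had been added, had 8, led by Antp (170.8), Abd-B (162.3) and Ubx (122.8). The hth member (109.1) is 1 of these 8. Segmentation genes had 2, in ptc (80) and cad, with 0 in both lists.

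Genes listed for the immunoglobulin family or for cell adhesion had 20 members at 40.7 per Mb (24.9 to 62.9), led by ImpL2 (631), kirre (457.2) and side (242.3). Axon guidance genes had 17, led by sli (408.8), Sema1a (375.1) and Ptp10D (350). Ion channel and synapse genes had 5 at 24 per Mb (7.79 to 56), in KCNQ (225.9), dlg1 (186.8) and Ih (151.1). This interval lies below the overall value, as 1 of 24 lists. Muscle structural genes had 1 member, in Zasp66 (273). The hemocyte marker ush had the 4 members given above, and the germline lists had Sxl (215.6) and ovo (81.9). Cytosolic ribosomal protein genes and oxidative phosphorylation genes had 0, on only 0.00136 and 0.0203 Mb of class bases.

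The TCF core was present within 50 bp of the summit in 10.7% of the members (127), against 8.61% of windows of the same length centred 500 bp downstream on the forward strand (102). It was in the summit window alone for 111 members and in the flank alone for 86. The difference of 2.11 percentage points did not pass an exact McNemar test (adjusted p = 0.152 over the 7 single comparisons and 0.29 over 20 motifs). In the list of replicate 1 alone the difference was 3.25 points and passed (adjusted p = 0.0371, exact McNemar test), while in that of replicate 2 alone it was 0.207 points. Of 174682 windows tiling the class's bases 8.78% held the core. Against the 5175 other peaks, of which 9.18% held it, the odds ratio was 1.19 (0.967 to 1.46, Fisher's exact test, adjusted p = 0.155). It was 0.983 against intronic peaks over 5 kb from a TSS, and 1.41 (adjusted p = 0.0013, Fisher's exact test) against peaks of the same class that fell short, of which 7.86% held the core. GC content was 34.1% at the members' summits, against 43.7% at the summits of those that fell short, and its part in that difference was not tested.

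Members with a core had a median pooled signal of 114.3 (quartiles 86.8 and 201.8), against 121.3 (86.4 and 184) in those without. Of members with a core 51.2% were in both replicates' lists, and of those without 55.3%. With the members split by pooled signal into 5 equal groups, from weakest to strongest, the core was at 10.5%, 12.7%, 9.7%, 10.1% and 10.6% of summits. By distance from the TSS it was at 7.44% of members (5.35 to 10%) between 1 and 2 kb, 14.9% (10.9 to 19.6%) between 2 and 3 kb, 11.5% between 3 and 4 kb and 13.2% between 4 and 5 kb. The matching flanks held it in 8.02%, 9.42%, 9.22% and 8.38%. The first 2 intervals do not overlap. In the same order the shares were 8.18%, 14.6%, 7.83% and 15.4% in the list of replicate 1 and 7.05%, 13.7%, 9.47% and 7.58% in that of replicate 2. The share was higher between 2 and 3 kb than between 1 and 2 kb in both lists, while beyond 4 kb the lists were far apart. This order was noticed in the data and was not tested. A core and a helper site lay together within 170 bp of the summit in 3.12% of the members and 2.49% of the other peaks.

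The summits were poor in G and C. GC content was 34.1% ± 9.62 at the summits and 40.8% ± 9.53 in the flanks (SD over 1184 members), and 39.9% over all windows tiling the class. The summit was the poorer of the pair in 71.6% of the 1158 members where they differed (95% interval 68.9 to 74.2%, exact sign test, two-sided, adjusted p = 2.10e-49). The dip was narrow, with 34.1% in the 50 bp before the summit, 38.8% in the 50 bp before those, and 43% at 100 to 150 bp. The weakest of the 5 signal groups had 40.1% at the summit against 40.5% in the flank, and the strongest 30.2% against 41.5%. Intronic peaks over 5 kb from a TSS had the same course, with 34% at the summit, and peaks within 250 bp of a TSS had 37.6%.

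**Figure D4:**
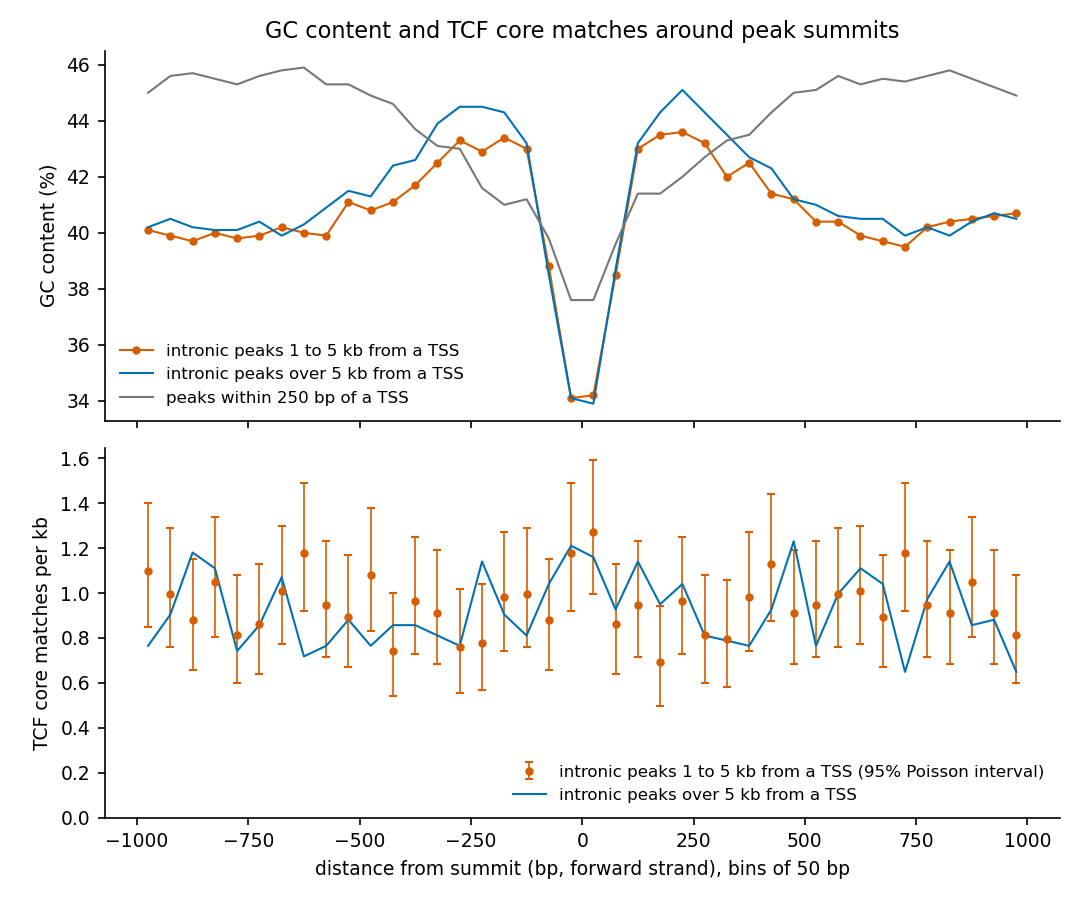
GC content (top, %) and TCF core matches per kb (bottom) in bins of 50 bp against distance from the summit (x axis, bp), for the members, with exact 95% Poisson intervals below, and for comparison sets. GC content of the members is 34.1% and 34.2% in the 2 bins at the summit and 43% at 125 bp on either side; the core reaches 1.27 per kb (0.996 to 1.59) just after the summit where it is highest.

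Of 20 motifs, searched on both strands, 2 were more frequent at the members' summits than in their flanks (10% of those tested) and 2 were less frequent (10%), by exact McNemar tests adjusted over the 20. The TATA box letters, TATAAA, were at 21.7% of summits and 12% of flanks (adjusted p = 9.22e-09, exact McNemar test), and at 13.3% of windows tiling the class. Homeodomain sites, TAATTA, were at 9.71% and 6.67% (adjusted p = 0.0445, exact McNemar test; tiling windows 8.14%), and 4 alternatives lost this call (exact McNemar adjusted p = 0.169 to 1). GAGA sites, GAGAG, were at 10.9% of summits and 15.5% of flanks (adjusted p = 0.0114, exact McNemar test; tiling windows 11.1%). Scalloped sites, GGAATG, read by the DNA-binding partner of Yorkie in the Hippo pathway, were at 3.21% and 5.83% (adjusted p = 0.0195, exact McNemar test; tiling windows 5.1%). Among the alternatives, 3 lost the GAGA call (exact McNemar adjusted p = 0.0626 to 0.434) and 3 the Scalloped call (0.109 to 0.352), while of these 4 motifs only the TATA box kept its call in every alternative run. GATA sites, AGATAA, were at 8.87% and 6.59% (adjusted p = 0.196, exact McNemar test). GAGA matches were not placed evenly, at 1.6 per kb in the 50 bp before the summit and 3.55 and 3.68 per kb at 125 bp to either side.

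Set against the other conservative peaks, 1 motif was more frequent in the members (5% of those tested) and 4 were less frequent (20%), by Fisher's exact tests adjusted over the 20. The STAT site, TTC and GAA parted by 3 letters of any kind, was at 3.89% of members' summits and 2.34% of others (odds ratio 1.69, 1.2 to 2.39, adjusted p = 0.0197, Fisher's exact test). It was at 3.11% of windows tiling the class and 2.32% of intronic peaks over 5 kb from a TSS. The members' own flanks held it at 3.63%, and their difference from the summits did not pass (adjusted p = 0.975, exact McNemar test). The DREF site, TATCGATA, was at 0 of 1184 members and 1.89% of other peaks (adjusted p = 6.18e-08, Fisher's exact test). BEAF-32 sites, CGATA, a string that also lies inside the DREF site, were at 9.8% and 15.4% (odds ratio 0.595, 0.484 to 0.731, Fisher's exact adjusted p = 2.54e-06). M1BP sites, GGTCACAC, were at 0.0845% and 0.986%, and CAGCTG E-boxes at 2.36% and 4.06% (Fisher's exact adjusted p = 0.00321 and 0.0197). DREF, BEAF-32 and M1BP are proteins bound at promoters or domain borders, and of the other peaks 2170 lay within 250 bp of a TSS and a further 1258 within 1000 bp. Intronic peaks over 5 kb from a TSS held DREF sites at 0.116%, BEAF-32 sites at 11.1% and M1BP sites at 0.348%. The E-box call was lost in 5 alternatives (Fisher's exact adjusted p = 0.0652 to 0.269), the M1BP call in the stronger peaks and in windows of 25 bp either side (0.109 and 0.102), and the STAT call in those windows (0.11).

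**Figure D5:**
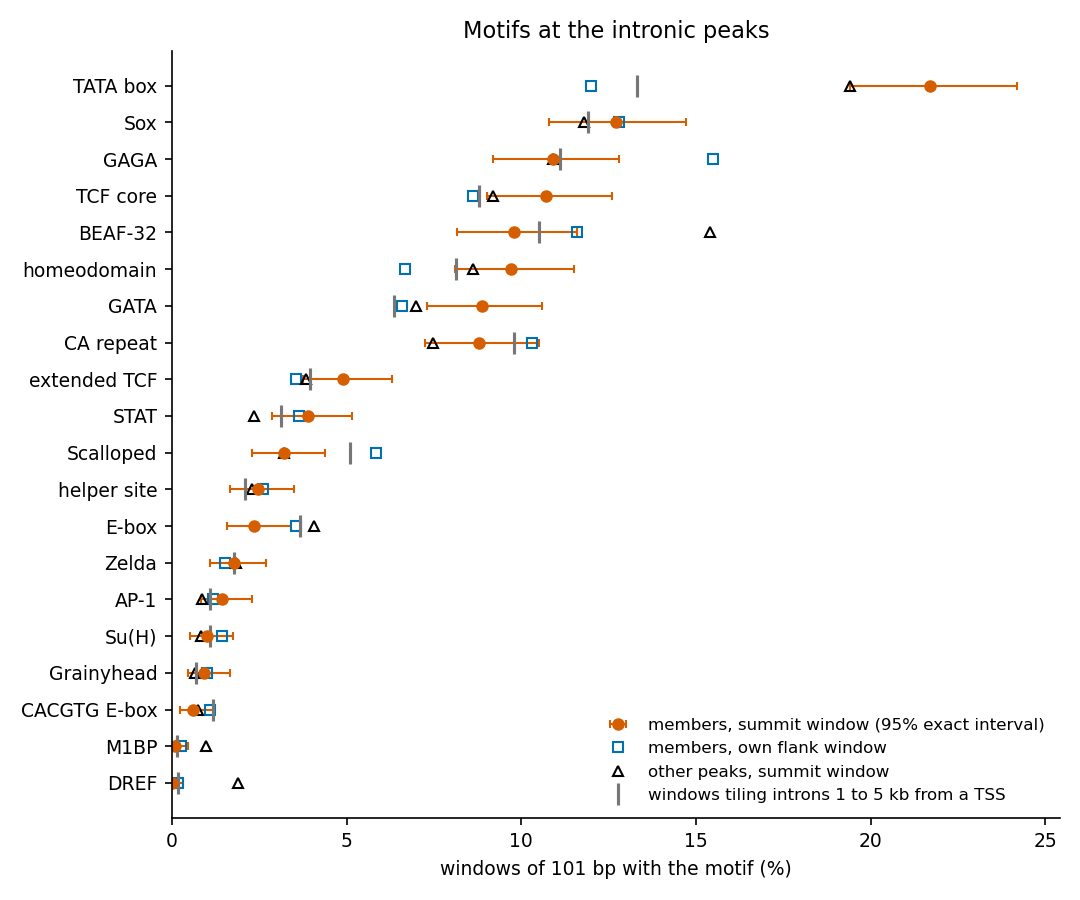
Share of windows, 50 bp either side of the centre, with each of 20 motifs (x axis, %): members' summits with exact 95% intervals, members' own flanks, the summits of other conservative peaks, and windows tiling introns 1 to 5 kb from a TSS. TATA box letters stand at 21.7% at the members' summits and 12% in their flanks, while DREF, BEAF-32 and M1BP sites are lower in members than in other peaks.

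Over all 2080 distinct 6-mers, a comparison added after seeing the data, 156 were more frequent at the members' summits than in their flanks (7.5%) and 193 were less frequent (9.28%), by exact McNemar tests adjusted over all of them. The most frequent gains were strings of A and T alone, such as ATATTA at 21.6% of summits and 9.46% of flanks (adjusted p = 1.66e-12, exact McNemar test) and AAATAT at 33.5% and 19.4%. The losses were rich in G and C, such as CTGCCA at 3.04% and 7.69% (adjusted p = 4.83e-05, exact McNemar test). The strings that begin the TCF core did not pass, with CTTTGA at 7.6% and 6.5% and ACAAAG, the reverse complement of CTTTGT, at 8.11% and 7.77% (exact McNemar adjusted p = 0.56 and 0.942).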

How the data were processed

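Per the file headers and labels, the authors deposited peak lists on dm6 for each of 2 replicates and for both pooled: ranked lists, and shorter lists that passed an IDR threshold. Each peak has a signal from the authors, whose scale is not given, and a −log10 q and, in ranked lists, a −log10 global IDR, also deposited by the authors. The aligner, peak caller and depth are not given in the sources used here. Summits were placed on the Ensembl release 115 annotation of the same assembly, and windows were read from the RefSeq genome. Of 6366 conservative peaks 7 on scaffolds were left out. Tests were Fisher's exact, exact McNemar and exact sign tests, two-sided, in SciPy 1.17.1 with Python 3.11.15, with Benjamini-Hochberg adjustment over 7 single comparisons, 20 motifs or 2080 6-mers and a threshold of 0.05. Odds ratio intervals are by the Woolf method, share intervals are Clopper-Pearson and densities have exact Poisson intervals. The code was tested on simulated data. Replicate signals were matched by overlap of 50% of the shorter peak.

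Members, lists and motifs were chosen with earlier results of these data known. Genes named were the hosts of the 15 strongest members, those with most members, every Wnt or Wingless-responsive host, up to 3 hosts per other list, and the 3 peaks on each side of each distance limit. Of the list symbols 22 matched through RefSeq synonyms and 10 matched nothing. The result of 1 list is not reported here. The extended TCF motif contains the TCF core. Alternatives are given in the closing section.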

Additional observations from a re-analysis of the deposited data

How the results depend on the processing

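The class share, first-intron and GC results kept direction and call in every alternative run, at 17.9 to 18.9%, odds ratios of 1.42 to 2.13 and 68.1 to 81% of members. Reproducibility stood at odds ratios of 1.1 to 1.24 with either replicate left out and at 0.944 in peaks above the median signal. The odds ratio for signal above the median was 0.996 in the longer pooled list and 0.859 to 1.01 with a replicate left out. The TCF core, summit against flank, ranged from 0.207 to 3.25 percentage points with a replicate left out. Against other peaks it gave 1.26 in the longer pooled list (Fisher's exact adjusted p = 0.0334), 0.957 among the stronger peaks, 0.983 against deep intronic peaks and 1.41 against peaks of the class that fell short, and 1.08 to 1.15 with a replicate left out. Called motifs, summit against flank, numbered 4 as reported, 7 among the stronger peaks, 2 and 1 with windows of 25 and 100 bp either side, 1 with the other flank and 5 to 9 with a replicate left out. Against other peaks they numbered 5 as reported, 8 in the longer list, 3 among the stronger peaks, 2 with 25 bp windows and 4 to 8 with a replicate left out. The 6-mers less frequent at summits numbered 193 as reported, 114 in the longer list and 90 to 297 with a replicate left out. The cause of these changes was not tested. Only 2 replicates, no control and no depth limit all of these values.
No paired comparison of conditions was possible because there was only 1 group.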

Other observations

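Some members lie in introns of non-coding genes or nearest to the TSS of one. No protein-coding host was annotated for 22 members, and the strongest of these was in lncRNA:CR44810, with 480.3 in replicate 1 and 460.4 in replicate 2. For 276 members the nearest TSS was of a gene other than the host. Among them was the strongest Notum member, nearest to the microRNA gene mir-4941, and the strongest EcR member, nearest to a tRNA gene. Neighbouring members lay within 1 kb of each other 137 times, and 1133 members were left when overlapping conservative peaks were reduced to the strongest.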
